A study of Mus musculus with 12 samples.

Results

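The chemokine receptors described here are 8 genes of myeloid cells, chosen by name: Ccr1, Ccr2, Ccr3, Ccr7, Ccrl2, Cxcr2, Cxcr4 and Cx3cr1. They are 8 of the 31693 gene names on the array and are read by 9 of its 39429 probes, 2 of them for Cx3cr1. RNA came from macrophages grown from mouse bone marrow for 10 days in GM-CSF at 20 ng/ml, from 2 Commd1 knockout and 2 Commd1 wildtype mice. The culture of each mouse gave 3 samples: one left untreated and the others given lipopolysaccharide (LPS) of Escherichia coli at 10 ng/mL for 3 h or 24 h. There were thus 6 groups of 2 samples, each sample on its own single-colour array: knockout and wildtype untreated, knockout and wildtype after 3 h of LPS, and knockout and wildtype after 24 h of LPS. All groups share the GM-CSF culture, and the labels used here do not say in which cells Commd1 was deleted or which exons were removed. COMMD1 is a protein of the endosomal sorting machinery that is also known to promote turnover of the NF-kB subunit RelA.

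Chemokine receptors are G protein-coupled receptors that steer leukocytes along gradients of small secreted proteins, the chemokines. On monocytes and macrophages, CCR2 is the receptor for CCL2 and drives exit from the marrow, CX3CR1 binds the membrane-anchored chemokine CX3CL1, and CXCR4 binds CXCL12 and retains cells in the marrow. CCR1 and CCR3 bind inflammatory CC chemokines, with CCR3 best known from eosinophils, CXCR2 binds the neutrophil-attracting CXC chemokines, and CCR7 guides mature dendritic cells to lymph nodes. CCRL2 is an atypical receptor that presents the chemoattractant chemerin and does not signal in the usual way. LPS is sensed by TLR4, which activates NF-kB and changes which of these receptors a macrophage carries.

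The bases upstream of 3 members are shown. They are Ccrl2 and Ccr3, the members whose windows held a match, and Cxcr4, the one that LPS lowered most at 3 h. They are the 250 bases before the RefSeq transcript start (build GRCm38.p6, read 5′ to 3′ on the gene's strand), with matches to an NF-kB consensus and to the AP-1 motif TGANTCA in capitals.
Ccrl2, chr9:111057519-111057768, minus strand: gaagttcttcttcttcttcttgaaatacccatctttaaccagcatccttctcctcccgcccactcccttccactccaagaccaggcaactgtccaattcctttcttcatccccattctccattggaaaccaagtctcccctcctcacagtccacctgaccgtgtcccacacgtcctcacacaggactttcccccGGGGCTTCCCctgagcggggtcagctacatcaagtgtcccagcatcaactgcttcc
Ccr3, chr9:124021721-124021970, plus strand: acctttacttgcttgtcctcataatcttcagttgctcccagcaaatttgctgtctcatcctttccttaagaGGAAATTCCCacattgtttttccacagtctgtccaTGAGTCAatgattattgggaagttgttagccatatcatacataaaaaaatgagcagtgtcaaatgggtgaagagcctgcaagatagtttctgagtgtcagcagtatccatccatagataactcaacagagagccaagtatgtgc
Cxcr4, chr1:128592300-128592549, minus strand: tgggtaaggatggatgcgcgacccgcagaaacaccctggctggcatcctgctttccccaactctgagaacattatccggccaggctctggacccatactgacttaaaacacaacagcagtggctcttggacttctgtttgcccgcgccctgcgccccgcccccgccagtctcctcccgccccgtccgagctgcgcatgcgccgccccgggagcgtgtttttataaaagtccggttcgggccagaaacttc
The NF-kB match in Ccrl2 begins at position -56 from the start, and it lies in only 1 of the 3 Ccrl2 starts that RefSeq lists. In Ccr3 the NF-kB match begins at position -179 and reads on the opposite strand, and the AP-1 match begins at position -144; the 2 matches do not overlap. Both strands were searched, and the motifs were found in none of the windows of Cxcr4, Ccr1, Ccr2, Cx3cr1 and Cxcr2. Ccr7 had no window to search. Ccrl2 and Ccr3 rose with LPS, and so did Ccr1, which held no match. The members that fell with LPS held none either. Any link of the matches to the LPS change was not tested. The interferon-stimulated response element (GAAA, then NN, then GAAA) was in none of the members' windows. Over 32851 RefSeq windows of the same length, 3.90% held the NF-kB consensus, 6.75% the AP-1 motif and 2.98% the interferon-stimulated response element, so a match in a window is a description and not a site.

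The 2 Cx3cr1 probes are shown because they read the gene differently, and only their first 30 bases are given. Both lie on the minus strand of chromosome 9 in the array's build, mm9.
Cx3cr1 brighter probe, chr9:119957811-119957870: cgtgcctagagtgtgtctatcccacttgta
Cx3cr1 dimmer probe, chr9:119959018-119959077: caagaatgtcttcatgcattcactgactcc
The brighter probe shares 55 bases in a row with a probe for the predicted gene LOC100048875, so signal of these 2 transcripts cannot be told apart. The longest run any other member's probe shared with a probe of another gene was 16 bases.

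Between 59.2% and 69.3% of probes were well above background on knockout arrays, and between 65.1% and 72.9% on wildtype arrays. The slope of log signal on the amount of spike-in RNA, given in the file headers, was 0.794 to 0.869 on knockout arrays and 0.735 to 0.824 on wildtype arrays. At each time both knockout arrays had a lower share of probes above background and a higher slope than both wildtype arrays. These array differences and genotype cannot be told apart. Replicate arrays correlated across genes with r of 0.994 to 0.997. Each slide held the 4 samples of 1 time, so the effects of slide and of LPS time cannot be told apart, and with fixed array positions for knockout and wildtype neither can position and genotype. Commd1 was lower in knockout samples, by 3.01 ± 0.23 (SE) on the log2 scale untreated, and its level was -0.50 and -0.01 in untreated knockout samples, against 2.72 and 2.79 in untreated wildtype samples. All 8 macrophage markers, among them Adgre1, Csf1r and Cd68, were well above background in every group. Markers of dendritic cells were partly detected too, with 5 or 6 of 8 per group above background on both arrays.

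A level here is the log2 processed signal minus the array's 75th percentile, so that 1 unit is a change of 2-fold, and levels of different probes are not compared. A difference is called when its two-sided p from limma, fitted over all 22978 genes and adjusted by the Benjamini-Hochberg method, is under 0.05, and "rose" and "fell" are used only then. With 2 mice a genotype an exact permutation test cannot go below p = 0.333, so the tests rest on the fit across all genes. In bulk RNA, fewer cells of a type and less RNA per cell cannot be told apart. A sum of marker levels takes in only the markers well above background on that array.

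**Figure D1:**
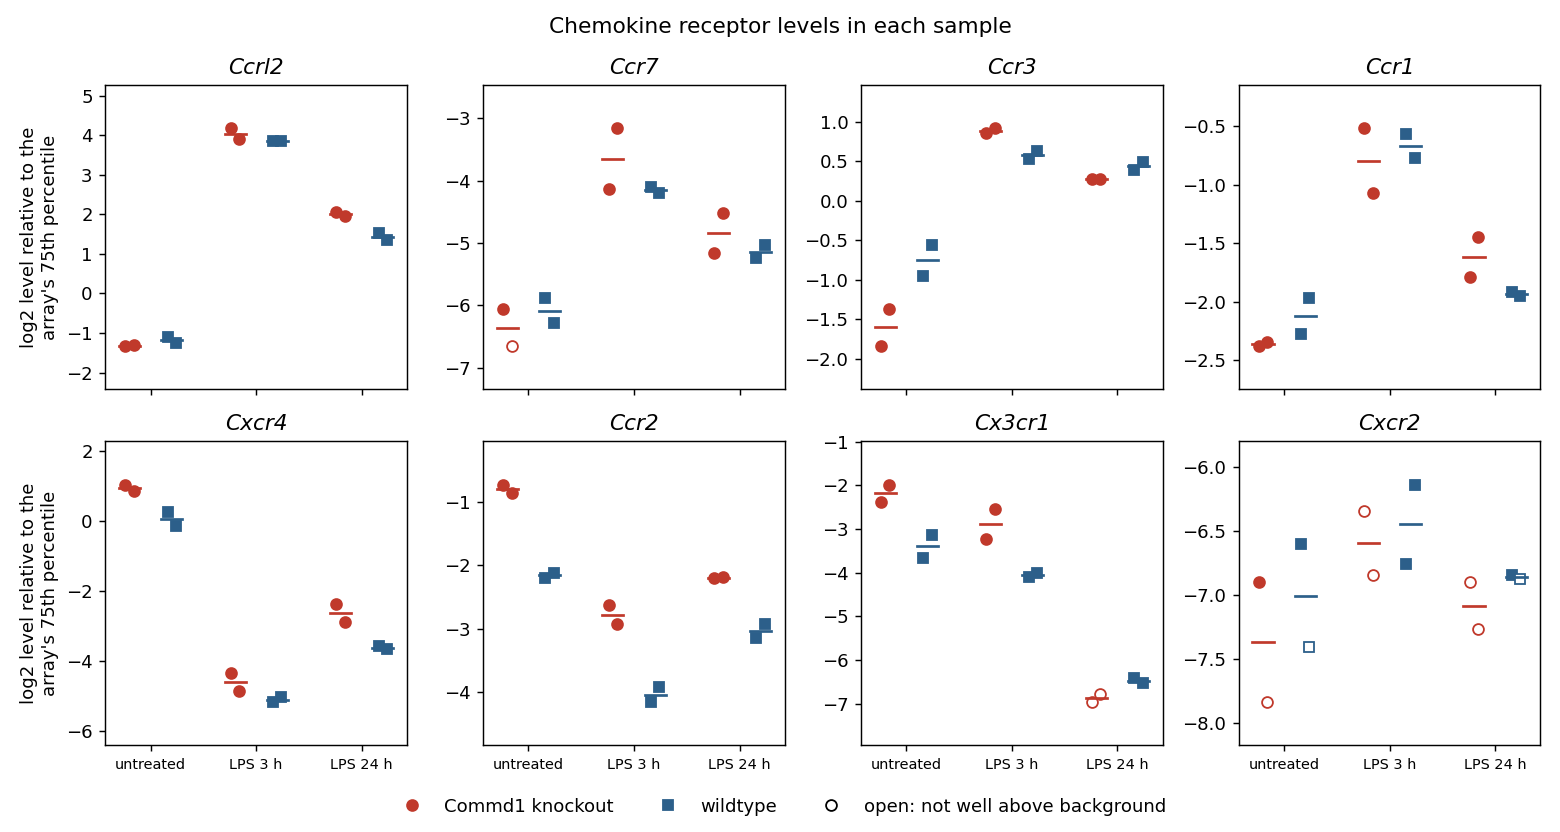
Level of each receptor (y axis, log2 relative to the array's 75th percentile; each panel has its own scale) in untreated, 3 h and 24 h samples (x axis). Circles are Commd1 knockout samples, squares are wildtype samples, bars are group means of 2, and open symbols mark arrays where the probe was not well above background. Ccrl2, Ccr7, Ccr3 and Ccr1 stand highest at 3 h, Cxcr4 and Ccr2 stand lowest at 3 h, and Cx3cr1 stands lowest at 24 h.

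LPS split the receptors by direction in both genotypes. After 3 h in knockout cells 4 of the 8 rose (Ccrl2, Ccr7, Ccr3 and Ccr1), where 26.4% of all genes tested were called higher, and 3 fell (Cxcr4, Ccr2 and Cx3cr1), where 25.7% were called lower. In wildtype cells the same 4 rose at 3 h, where 23.2% of all genes were called higher, and Cxcr4 and Ccr2 fell, where 23.4% were called lower. After 24 h in knockout cells the same 4 rose and the same 3 fell, where 26.0% of all genes were called higher and 31.5% lower. In wildtype cells 2 rose at 24 h (Ccrl2 and Ccr3) and 3 fell (Cxcr4, Ccr2 and Cx3cr1), where 23.6% of all genes were called higher and 26.4% lower. With shares of all genes this high, the counts alone do not set the receptors apart. Between 3 h and 24 h in knockout cells, 2 members rose again (Cxcr4 and Ccr2) and 5 fell, where 26.3% of all genes were called higher and 32.6% lower. In wildtype cells 2 rose (Cxcr4 and Ccr2) and 4 fell over that interval, where 25.7% of all genes were called higher and 26.9% lower. The median change of the 8 members at 3 h was 1.17 in knockout cells and 0.95 in wildtype cells, beside medians over all genes of 0.06 and 0.03. At 24 h the members' medians were 0.51 in knockout and 0.17 in wildtype cells, beside -0.07 and -0.04 over all genes.

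Ccrl2, the atypical chemerin receptor, had the largest increase of the 8 in both genotypes. In knockout cells its level was -1.32 and -1.31 untreated, 4.17 and 3.89 at 3 h, and 2.06 and 1.95 at 24 h. Wildtype cells gave -1.09 and -1.26 untreated, 3.85 and 3.84 at 3 h, and 1.54 and 1.34 at 24 h. Every LPS sample stood far above every untreated sample, and the 3 times did not overlap in either genotype. At 3 h the rise was 5.35 ± 0.12 (SE) in knockout cells, or 40.7-fold (adjusted p = 2.52e-08), and 5.03 ± 0.12 in wildtype cells, or 32.6-fold (adjusted p = 3.57e-08). The level then fell back without returning to that of untreated cells: at 24 h it was still 3.32 ± 0.12 above untreated in knockout cells and 2.62 ± 0.12 above untreated in wildtype cells.

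Ccr7, the homing receptor of mature dendritic cells, was dim on these arrays, with signals of 23.0 to 221 units, and was well above background on 11 of 12. In knockout cells its level was -6.06 and -6.64 untreated, -4.13 and -3.16 at 3 h, and -5.16 and -4.52 at 24 h. The wildtype levels were -5.89 and -6.28 untreated, -4.10 and -4.20 at 3 h, and -5.24 and -5.03 at 24 h. All 4 samples at 3 h stood above all 4 untreated ones, and the array that missed background was an untreated knockout one. At 3 h Ccr7 rose by 2.71 ± 0.35 in knockout cells (adjusted p = 0.00022) and by 1.93 ± 0.35 in wildtype cells (adjusted p = 0.0020). At 24 h it was higher than untreated by 1.52 ± 0.35 in knockout cells (adjusted p = 0.00556), and the wildtype difference of 0.94 ± 0.35 was not called (adjusted p = 0.0505). From 3 h to 24 h it fell by 1.19 ± 0.35 in knockout cells (adjusted p = 0.0168). That call was lost without replicate 2 of the knockout 3 h group (-0.71, adjusted p = 0.105), without replicate 1 of the knockout 24 h group (-0.87, adjusted p = 0.110), and with only the groups compared fitted (adjusted p = 0.0582). The wildtype fall over the same interval was 0.99 ± 0.35 (adjusted p = 0.0408), with mouse as a block the adjusted p was 0.0540, and leaving out any 1 of the 4 arrays gave an adjusted p of 0.0890 to 0.152. Normexp background correction (-0.38, adjusted p = 0.0714) and no filter on dim probes (adjusted p = 0.0673) also ended that wildtype call. Summed linear levels of the 8 dendritic cell markers at 3 h were 17.9 and 12.6 in knockout samples and 10.2 and 8.95 in wildtype samples, and untreated they were 10.5 and 6.33 in knockout and 6.54 and 5.82 in wildtype samples. Their part in the Ccr7 values was not tested.

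Ccr3, which binds eotaxins, rose at both times in both genotypes. In knockout cells it stood at -1.83 and -1.37 untreated, 0.86 and 0.92 at 3 h, and 0.28 and 0.28 at 24 h. Wildtype cells stood at -0.95 and -0.56 untreated, 0.53 and 0.63 at 3 h, and 0.40 and 0.50 at 24 h. The untreated groups lay lowest, knockout below wildtype, and the LPS groups of both genotypes lay close together. The rise at 3 h was 2.49 ± 0.17 in knockout cells (5.63-fold, adjusted p = 4.86e-06) and 1.34 ± 0.17 in wildtype cells (2.53-fold, adjusted p = 0.000267). At 24 h it was 1.88 ± 0.17 in knockout cells and 1.20 ± 0.17 in wildtype cells. Of 10 markers of eosinophils, basophils and mast cells, Epx, Cpa3, Fcer1a and Ms4a2 were well above background on no array. The summed linear level of the 10 was 0.302 and 0.336 in untreated knockout samples and 0.554 and 0.602 in untreated wildtype samples, 0.704 and 0.727 in knockout and 0.676 and 0.569 in wildtype samples at 3 h, and 0.148 to 0.238 in both genotypes at 24 h. The part of such cells in the Ccr3 values was not tested.

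Ccr1, a receptor for CCL3 and CCL5, rose early and then declined. Its level in knockout cells was -2.37 and -2.34 untreated, -0.52 and -1.07 at 3 h, and -1.79 and -1.45 at 24 h. In wildtype cells it was -2.27 and -1.97 untreated, -0.57 and -0.77 at 3 h, and -1.91 and -1.95 at 24 h. The genotypes overlapped at 3 h, and wildtype samples at 24 h had come back to just above the untreated ones. The rise at 3 h was 1.57 ± 0.20 in knockout cells (adjusted p = 0.000198) and 1.45 ± 0.20 in wildtype cells (adjusted p = 0.000404). At 24 h Ccr1 was still higher than untreated in knockout cells, by 0.74 ± 0.20 (adjusted p = 0.0117). That call was lost without replicate 1 of the untreated knockout group (0.72, adjusted p = 0.0510) and without replicate 2 of the knockout 24 h group (0.57, adjusted p = 0.0737). The wildtype difference at 24 h was 0.19 ± 0.20 (adjusted p = 0.458). From 3 h to 24 h Ccr1 fell by 0.83 ± 0.20 in knockout cells and by 1.26 ± 0.20 in wildtype cells.

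Cxcr4, the CXCL12 receptor, had the largest decrease of the 8 at 3 h. In knockout cells its level was 1.04 and 0.87 untreated, -4.33 and -4.87 at 3 h, and -2.38 and -2.88 at 24 h. The wildtype samples read 0.26 and -0.15 untreated, -5.17 and -5.04 at 3 h, and -3.58 and -3.67 at 24 h. The probe was well above background on all 12 arrays, with signals between 65.7 and 4927 units, and no group overlapped another. The fall at 3 h was -5.56 ± 0.23 in knockout cells (47.1-fold lower, adjusted p = 3.34e-07) and -5.16 ± 0.23 in wildtype cells (35.7-fold lower, adjusted p = 6.56e-07). Part of it was regained by 24 h, when Cxcr4 was 1.98 ± 0.23 above its 3 h level in knockout cells and 1.48 ± 0.23 above it in wildtype cells. At 24 h it remained 12.0-fold below untreated in knockout cells and 12.8-fold below untreated in wildtype cells.

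Ccr2, the CCL2 receptor of inflammatory monocytes, fell and then partly recovered like Cxcr4, but over a smaller range. In knockout cells its level was -0.73 and -0.86 untreated, -2.63 and -2.92 at 3 h, and -2.20 and -2.19 at 24 h. In wildtype cells it was -2.19 and -2.11 untreated, -4.15 and -3.92 at 3 h, and -3.14 and -2.92 at 24 h. Knockout samples at 24 h of LPS stood at the level of untreated wildtype samples. At 3 h Ccr2 changed by -1.98 ± 0.13 in knockout cells (adjusted p = 4.59e-06) and by -1.88 ± 0.13 in wildtype cells (adjusted p = 8.64e-06). At 24 h it differed from untreated by -1.40 ± 0.13 in knockout cells and by -0.88 ± 0.13 in wildtype cells. It rose between 3 h and 24 h by 0.58 ± 0.13 in knockout cells and by 1.01 ± 0.13 in wildtype cells.

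Cx3cr1, the fractalkine receptor, kept most of its level at 3 h and lost it by 24 h, unlike Cxcr4 and Ccr2. On the brighter probe its level in knockout cells was -2.38 and -1.99 untreated, -3.24 and -2.55 at 3 h, and -6.96 and -6.77 at 24 h. In wildtype cells it was -3.67 and -3.13 untreated, -4.11 and -4.01 at 3 h, and -6.41 and -6.53 at 24 h. Neither knockout array at 24 h was well above background, so there the value is only a bound. At 24 h Cx3cr1 was at least 15.8-fold lower than untreated in knockout cells (adjusted p = 1.80e-06) and 8.40-fold lower in wildtype cells (-3.07 ± 0.25, adjusted p = 2.72e-05). At 3 h it fell by 0.71 ± 0.25 in knockout cells (adjusted p = 0.0426), a call that was lost without replicate 2 of the untreated group (-0.51, adjusted p = 0.212) or replicate 1 of the 3 h group (-0.37, adjusted p = 0.261). It was also lost with quantile normalization (-0.65, adjusted p = 0.0697), no filter on dim probes (adjusted p = 0.0702) or only the groups compared (adjusted p = 0.124). The wildtype change of -0.66 ± 0.25 at 3 h was not called (adjusted p = 0.0614), and with mouse as a block the adjusted p was 0.0243. On the probe for LOC100048875, which shares 55 bases with it, the untreated samples read -2.43 and -1.99 in knockout and -3.90 and -3.27 in wildtype cells. The dimmer Cx3cr1 probe was well above background on 3 arrays, both untreated knockout ones (-6.29 and -5.99) and untreated wildtype replicate 2 (-7.16).

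Cxcr2, the receptor for neutrophil-attracting chemokines, was barely detectable. Its signals lay between 10.1 and 31.0 units, and it was well above background on 5 of 12 arrays. It passed the filter on dim probes only through the wildtype 3 h group, the 1 group in which both arrays were above background. Its levels ran from -6.14 to -7.83. No contrast was called by limma (adjusted p of 0.122 to 0.932). Knockout samples at 3 h and at 24 h were all below background, so no order of the groups is read. Neutrophil marker genes were nonetheless present, with all 8 on the array above background in every group and summed linear levels of 38.8 to 44.4 in knockout and 40.2 to 48.4 in wildtype samples.

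**Figure D2:**
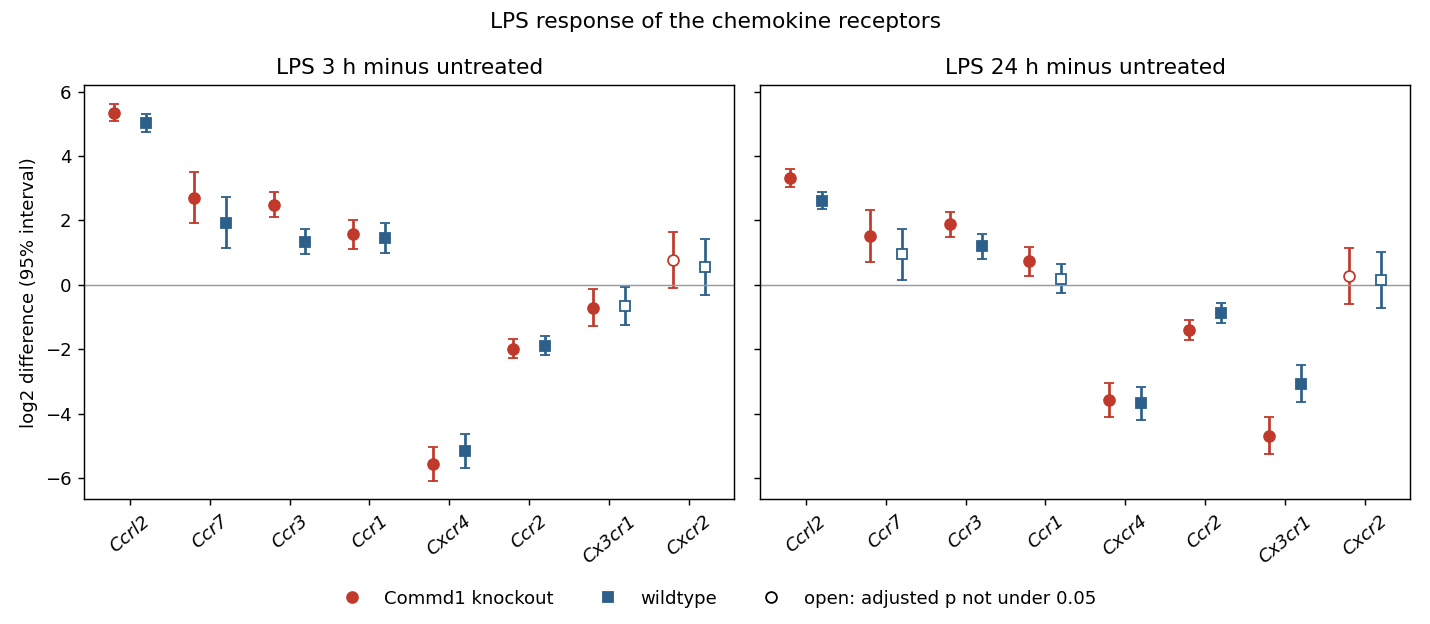
Change of each receptor after 3 h (left) and 24 h (right) of LPS relative to untreated cells (y axis, log2 difference; x axis, gene), with 95% intervals from limma, n = 2 mice per group. Circles are Commd1 knockout cells, squares wildtype cells, and open symbols have an adjusted p not under 0.05. Ccrl2 lies highest and Cxcr4 lowest at 3 h, and knockout and wildtype intervals overlap for most genes. The knockout Cx3cr1 point at 24 h is below background, so its drawn value is the measured one and the bound in the text holds for its fold.

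Knockout cells differed from wildtype cells in few of the receptors. In untreated cells 2 of the 8 were higher in the knockout (Ccr2 and Cx3cr1), where 3.76% of all genes were called higher, and 1 was lower (Ccr3), where 3.07% were called lower. At 3 h Ccr2 was higher in the knockout, 1 of 8, where 1.07% of all genes were called higher, and at 24 h Ccr2 again, 1 of 8, where 0.718% were. Fits on the groups compared alone called none of the 8 at any time, with 4, 3 and 4 of them at an unadjusted p under 0.05 untreated, at 3 h and at 24 h, beside 22.4%, 18.9% and 18.6% of all genes. With no filter on dim probes only Ccr2 in untreated cells was called. The median genotype difference of the 8 was -0.19 untreated, 0.41 at 3 h and 0.31 at 24 h, beside medians over all genes of 0.04, 0.03 and 0.00.

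Ccr2 was higher in knockout than in wildtype cells at all 3 times, and each pair of groups was separate. Separate groups were also seen without a call by limma, as for Ccr1 untreated (adjusted p = 0.496) and Cxcr2 at 24 h (adjusted p = 0.770). The difference was 1.36 ± 0.13 untreated (2.56-fold, adjusted p = 0.00347), 1.26 ± 0.13 at 3 h (2.40-fold, adjusted p = 0.0254) and 0.84 ± 0.13 at 24 h (1.79-fold, adjusted p = 0.0264). The untreated call held when any 1 array was left out. At 3 h it was lost without wildtype replicate 1 (1.15, adjusted p = 0.0834) or knockout replicate 1 (1.11, adjusted p = 0.0649). At 24 h it was lost without wildtype replicate 1 (0.73, adjusted p = 0.154), wildtype replicate 2 (0.95, adjusted p = 0.0809) or knockout replicate 1 (0.84, adjusted p = 0.0539). Other monocyte genes were measured beside it: the summed linear level of 5 markers was 3.27 and 2.05 in knockout against 0.905 and 0.846 in wildtype samples untreated, 3.60 and 2.13 against 1.06 and 1.23 at 3 h, and 55.1 and 64.1 against 21.4 and 23.2 at 24 h. Of the 5, F13a1 (2.27 ± 0.41, adjusted p = 0.0229) and Ly6c1 (1.44 ± 0.25, adjusted p = 0.0203) were higher in untreated knockout cells. At 24 h 3 of the 5 were higher, Ly6c1 and Plac8 among them. Of all genes, 3.76% untreated and 0.718% at 24 h were called higher. The calls for F13a1 and Ly6c1 untreated were lost without wildtype replicate 1 or 2 or knockout replicate 1 (F13a1 1.83 to 2.36, Ly6c1 1.38 to 1.49). At 24 h the difference was 1.38 for Ly6c1 and 1.05 for Plac8. Both calls were lost without wildtype replicate 1 or 2 and when the probes of each gene were averaged, which gave 0.60 for Ly6c1 (adjusted p = 0.0728) and 0.50 for Plac8 (adjusted p = 0.255). The Ly6c1 call was also lost without either knockout array (1.55 and 1.22) and with no filter on dim probes (adjusted p = 0.0771). Their part in the Ccr2 difference was not tested.

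Without LPS, Cx3cr1 was higher in knockout cells than in wildtype cells by 1.22 ± 0.25 (2.32-fold, adjusted p = 0.0317). Leaving out any 1 of the 4 arrays gave 0.95 to 1.48 and an adjusted p of 0.0744 to 0.109, so the call needs all of them: it was lost without wildtype replicate 1 (0.95) or 2 (1.48) and without knockout replicate 1 (1.41) or 2 (1.02). At 3 h the difference was 1.16 ± 0.25 (adjusted p = 0.0581). At 24 h, with the knockout below background, no fold is given (adjusted p = 0.400). The monocyte marker sums above were also higher in knockout samples untreated and at 3 h. They were higher at 24 h as well, when Cx3cr1 was below background in the knockout. Their part in the Cx3cr1 difference was not tested.

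Ccr3 was the only member called lower in knockout cells, and only untreated (-0.85 ± 0.17, adjusted p = 0.0286). The call was lost without wildtype replicate 2 (-0.65, adjusted p = 0.163) or knockout replicate 1 (-0.61, adjusted p = 0.169). At 3 h the difference was 0.31 ± 0.17 (adjusted p = 0.297) and at 24 h -0.17 ± 0.17 (adjusted p = 0.608). In untreated cells the summed eosinophil, basophil and mast cell markers given above were lower in knockout samples too. Of these 10 markers, 4 in untreated knockout and 5 in untreated wildtype samples were above background on both arrays, and undetected markers do not enter the sums. Of the 5 markers that could be tested, 2 were called lower, where 3.07% of all genes were.

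Cxcr4 stood above wildtype in every knockout sample at all 3 times, without a call: 0.90 ± 0.23 untreated (adjusted p = 0.0530), 0.50 ± 0.23 at 3 h (adjusted p = 0.218) and 1.00 ± 0.23 at 24 h (adjusted p = 0.0603). With mouse as a block the untreated adjusted p was 0.0461. Ccrl2 at 24 h had a difference of 0.57 ± 0.12 (adjusted p = 0.0523, and 0.0478 with mouse as a block). Ccr1, Ccr7 and Cxcr2 had differences between -0.36 and 0.51 at the 3 times, with adjusted p of 0.393 to 0.845. Their 95% intervals were wide, for example -0.29 to 1.30 for Ccr7 at 3 h and -0.69 to 0.21 for Ccr1 untreated.

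**Figure D3:**
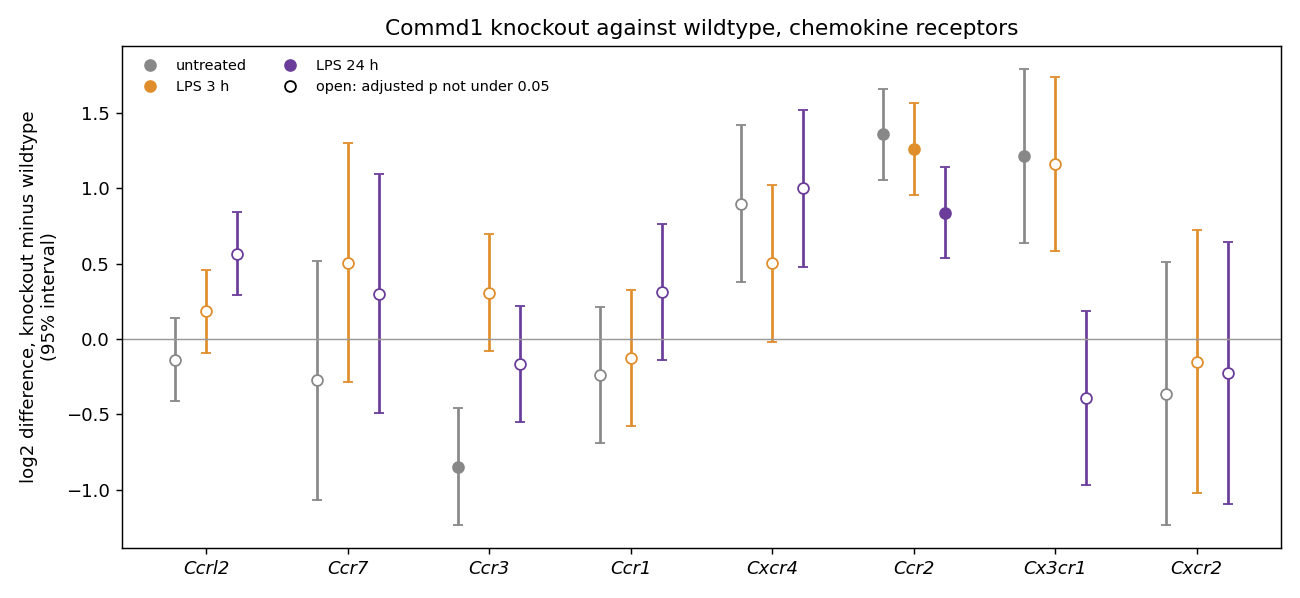
Commd1 knockout minus wildtype difference of each receptor (y axis, log2; x axis, gene) in untreated, 3 h and 24 h samples (grey, orange and purple), with 95% intervals from limma, n = 2 mice per genotype. Filled points have an adjusted p under 0.05. Ccr2 is filled at all 3 times, Cx3cr1 and Ccr3 are filled untreated only, and the Cx3cr1 value at 24 h rests on knockout arrays below background.

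Whether the LPS response itself differed between the genotypes was tested as the interaction, and no member was called. Of all genes 0.0348% were called at 3 h and 0.326% at 24 h, and at an unadjusted p under 0.05 the fit gave 1 of the 8 at 3 h, beside 12.4% of all genes, and 4 of the 8 at 24 h, beside 14.6%. The response of Ccr3 at 3 h was larger in knockout than in wildtype cells by 1.16 ± 0.24 (adjusted p = 0.124). At 24 h Cx3cr1, below background in knockout cells, had an adjusted p of 0.101, and no size is given. The responses at 24 h of Ccrl2 (0.70 ± 0.17, adjusted p = 0.120), Ccr3 (0.68 ± 0.24, adjusted p = 0.249) and Ccr2 (-0.52 ± 0.19, adjusted p = 0.261) also missed the threshold. By mouse, Ccr3 changed at 3 h by 2.70 and 2.29 in the knockout mice and by 1.48 and 1.20 in the wildtype mice.

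The ligands of these receptors mostly rose with LPS. Of 20 ligands listed, all but the eotaxin Ccl11 passed the filter on dim probes, and 15 of the 19 rose at 3 h in knockout and in wildtype cells, with none called lower. Of all genes, 26.4% in knockout and 23.2% in wildtype cells were called higher at 3 h, and 25.7% and 23.4% lower. The medians were 3.90 in knockout and 3.56 in wildtype cells, or 3.56 and 3.21 with genes below background in untreated cells held at their bounds. At 24 h 11 ligands rose and 4 fell in knockout cells, where 26.0% of all genes were called higher and 31.5% lower. In wildtype cells 13 rose and 1 fell, where 23.6% were called higher and 26.4% lower. Among those called higher, Cxcl3 was below background in both groups compared. For the ligand of the receptor that fell most at 3 h, Cxcl12, the change then was -0.88 ± 0.36 in knockout cells (adjusted p = 0.0729) and -0.54 ± 0.36 in wildtype cells (adjusted p = 0.258). Cx3cl1 rose at 3 h by 1.57 ± 0.16 in knockout cells and 2.64 ± 0.16 in wildtype cells, and at 24 h it differed from untreated by -2.86 ± 0.16 in knockout cells and -1.69 ± 0.16 in wildtype cells, the time at which its receptor Cx3cr1 was also lowest. Rarres2, which encodes the CCRL2 ligand chemerin, was higher at 24 h by 1.67 ± 0.32 in knockout and 1.33 ± 0.32 in wildtype cells, the wildtype call being lost without replicate 1 of the 24 h group (1.09, adjusted p = 0.0636). Ccl19, a CCR7 ligand, rose at 3 h by 1.68 ± 0.14 in knockout and 1.32 ± 0.14 in wildtype cells.

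Between genotypes, 8 ligands were called in untreated cells, 4 in each direction, where 3.76% of all genes were called higher and 3.07% lower. The CCR2 ligands Ccl2 (-2.32 ± 0.47, adjusted p = 0.0295) and Ccl7 (-1.97 ± 0.48, adjusted p = 0.0479) and the CCR1 ligands Ccl3 (-1.33 ± 0.22) and Ccl4 (-1.73 ± 0.25) were lower in the knockout, while Ccl5, Ccl8, Ccl24 and Cx3cl1 were higher by 1.17 to 1.65. Ccl2 stood at 0.66 and 2.11 in untreated knockout samples and at 3.14 and 4.28 in untreated wildtype samples, while its receptor Ccr2 ran the other way. Of the 8 calls, 6 were lost without wildtype replicate 2 and 6 without knockout replicate 1; Ccl2 was then -1.75 (adjusted p = 0.165) and -1.60 (adjusted p = 0.150), and Ccl7 -1.31 and -1.38. Cx3cl1, at -1.72 and -1.95 in untreated knockout and -3.09 and -2.92 in untreated wildtype samples, was higher together with its receptor. At 3 h no ligand was called between genotypes by limma, where 387 of 22978 genes were. At 24 h 4 were lower in the knockout, where 549 of 22976 genes were called in either direction, 165 of them higher. These were Cxcl2 (-1.70 ± 0.23), Ccl6 (-0.46 ± 0.09), Cxcl1, which was at least 1.48-fold lower, and Cxcl3, which was below background in both. Normexp background correction ended the calls for Cxcl1 (-0.24) and Cxcl3 (-0.06), and the deposited value table gave 0.16 for Cxcl3 (adjusted p = 0.270). All 4 of these calls were lost without wildtype replicate 1 or without wildtype replicate 2, where Cxcl2 stood at -1.69 (adjusted p = 0.103) and -1.72 (adjusted p = 0.0849).

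**Figure D4:**
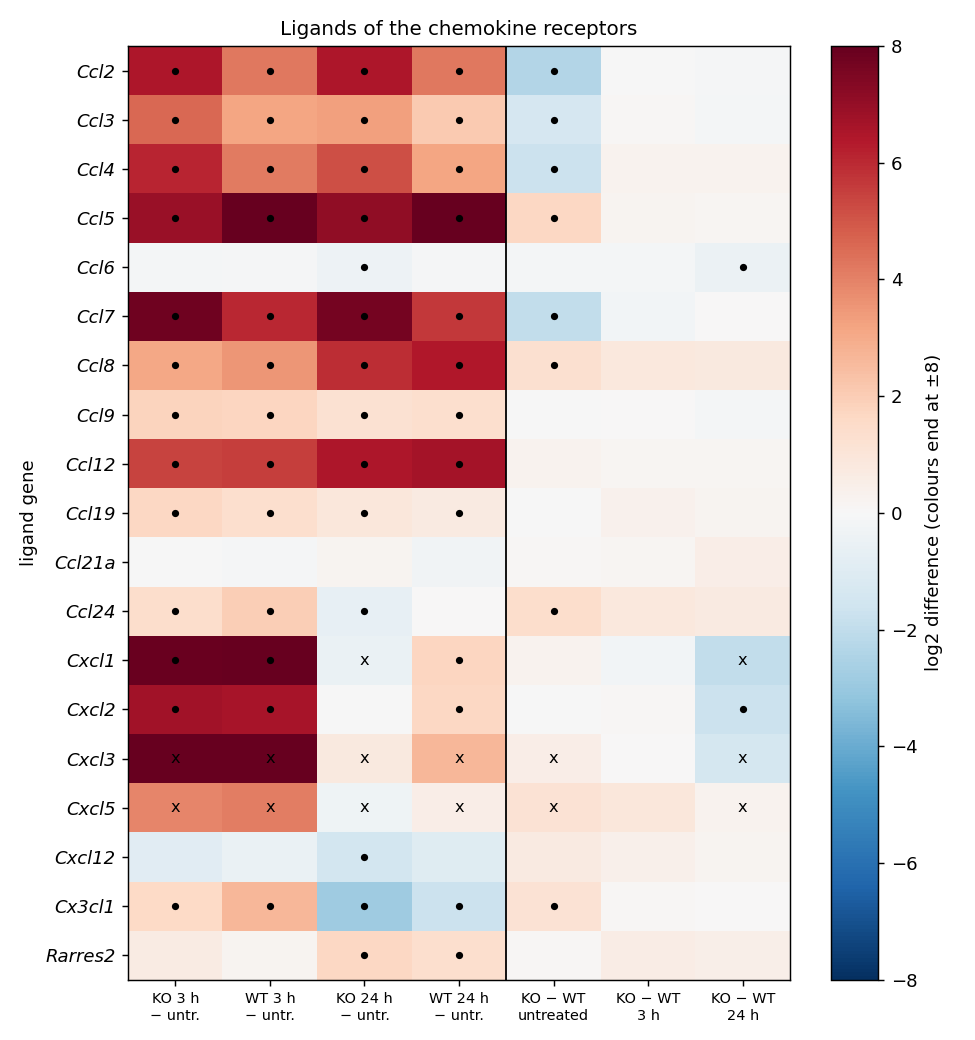
Log2 differences of 19 ligand genes (rows) for LPS against untreated cells in knockout (KO) and wildtype (WT) cells and for knockout against wildtype (columns), with colour running from blue (lower) to red (higher) and ending at ±8. A dot marks an adjusted p under 0.05, and an x marks a value where at least 1 of the groups compared was below background, called or not. The LPS columns at 3 h are red for 15 called genes, and the untreated genotype column holds 4 blue and 4 red calls.

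Among 17 further chemokine receptors, 13 passed the filter (all but Xcr1, Ackr2, Ackr3 and Ackr4), and none was called between genotypes at any time. Genes called in either direction between genotypes were 1571 of 22976 untreated, 387 of 22978 at 3 h and 549 of 22976 at 24 h. At 3 h 5 rose and 3 fell in knockout cells, where 26.4% of all genes were called higher and 25.7% lower. In wildtype cells 4 rose and 2 fell at 3 h, where 23.2% were called higher and 23.4% lower. At 24 h 4 rose and 3 fell in knockout cells, where 26.0% of all genes were called higher and 31.5% lower. In wildtype cells 4 rose and 2 fell at 24 h, where 23.6% were called higher and 26.4% lower. With such shares, these counts do not set the further receptors apart. Ccr1l1, a mouse relative of Ccr1, rose at 3 h by 1.58 ± 0.14 in knockout and 1.17 ± 0.14 in wildtype cells. Cxcr3 fell at both times in both genotypes, the change at 3 h being -1.39 ± 0.16 in knockout and -0.92 ± 0.16 in wildtype cells.

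Of 21 genes for receptor signalling and its shut-off, all measured, 8 rose and 8 fell at 3 h in knockout cells and 7 rose and 9 fell in wildtype cells. Of all genes, 26.4% were called higher and 25.7% lower at 3 h in knockout cells, and 23.2% and 23.4% in wildtype cells. Pik3r5, a subunit of the PI3K gamma that chemokine receptors activate, rose by 2.64 ± 0.10 in knockout and 2.26 ± 0.10 in wildtype cells. The arrestin genes Arrb1 and Arrb2, whose products end receptor signalling, fell, with changes of -1.71 ± 0.14 and -1.57 ± 0.09 in knockout cells and of -1.35 ± 0.14 and -1.09 ± 0.09 in wildtype cells. Between genotypes, 2 of the 21 were called higher and 1 lower in untreated cells, where 3.76% of all genes were called higher and 3.07% lower. Rgs1, which shortens G protein signalling, was lower in untreated knockout cells (-2.14 ± 0.36, adjusted p = 0.0192). The receptor kinase Grk3 (1.17 ± 0.21) and Arrb2 (0.54 ± 0.09) were higher. All 3 calls were lost without wildtype replicate 2 or knockout replicate 1, where Rgs1 was -1.79 and -1.62. At 24 h 1 of the 21 was lower in the knockout (Pik3cg), where 549 of 22976 genes were called in either direction. That call was lost without wildtype replicate 1 or 2. Among 8 receptors for other chemoattractants, 4 rose and 3 fell in knockout cells at 3 h and 4 rose and 4 fell in wildtype cells, beside the same shares of all genes. The formyl peptide receptor Fpr2 reached 7.12 ± 0.22 above untreated at 24 h in knockout and 8.20 ± 0.22 in wildtype cells. Between genotypes, 2 of the 8 were called higher untreated, 1 at 3 h and 1 at 24 h, where 3.76%, 1.07% and 0.718% of all genes were. At 24 h 1 of the 8 was called lower, where 549 of 22976 genes were called in either direction. The leukotriene B4 receptor Ltb4r1 was higher in knockout cells untreated (0.85 ± 0.11), at 3 h (0.71 ± 0.11) and at 24 h (0.97 ± 0.11), as Ccr2 was. Its call was lost without knockout replicate 1 untreated, without any 1 array but knockout replicate 2 at 3 h and without wildtype replicate 1 at 24 h. Of the same 8, Fpr2 was higher in untreated knockout cells by limma (1.04, adjusted p = 0.0350). C5ar1 went the other way and was lower in knockout cells at 24 h (-0.95, adjusted p = 0.0304). The Fpr2 call was lost without any 1 of its arrays, and the C5ar1 call without wildtype replicate 1 or 2.

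Genes with the most similar course over the 12 arrays were found for each member by the root mean square (RMS) difference of log2 levels after each gene was centred on its own mean. Nearest to Ccrl2 were Tnip3 (0.21), the inducible nitric oxide synthase gene Nos2 (0.25) and Traf1 (0.27), set beside the spread of Ccrl2 about its own mean of 2.13. Nearest to Ccr1 were Rab32 (0.10), Zfp131 (0.15) and Gosr2 (0.15), beside a spread of 0.66. For Ccr3 they were Ubash3b (0.18), Ankrd52 (0.18) and Rapgef5 (0.23), and for Ccr7 Tnfrsf1b (0.32), Tlk2 (0.33) and Gca (0.33). For Cxcr4 they were Mex3b (0.54), Trp53inp1 (0.66) and Lpin1 (0.68), beside a spread of 2.28. For Ccr2 they were 6720407P12Rik (0.28), Nhsl2 (0.38) and Tbc1d4 (0.40), and for Cx3cr1 Cyp39a1 (0.35), Spn (0.41) and Sult1a1 (0.45). Cxcr2, whose levels lie near background, gave Plut (0.24), LOC100048232 (0.24) and Cyp4a10 (0.25), beside a spread of 0.44. The 12 arrays share their mice and slides, and no gene is said to share a function with a member.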

How the data were processed

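Each of the 12 macrophage samples was hybridised to its own single-colour array. Per the file headers, the deposited scanner files give a processed intensity for each spot, from which background and a spatial trend had been subtracted. They also hold the raw mean and background intensities and, per the file headers, flags of 0 or 1 for detection above background, saturation and outliers. The submitters' processing notes name Agilent Feature Extraction, version 10.7.3.1. The deposited value table holds log2 values: on each array nearly all detected probes equal that array's log2 processed intensity minus a constant within 0.01. It is not centred per gene, the constant lay close to the array's 75th percentile, and it was used as an alternative. Its column medians were -4.32 and -4.41 (knockout untreated), -4.37 and -4.46 (wildtype untreated), -4.30 and -4.38 (knockout 3 h), -4.42 and -4.40 (wildtype 3 h), -4.33 and -4.50 (knockout 24 h) and -4.44 and -4.42 (wildtype 24 h).

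Control spots and outlier spots were left out, spots of 1 probe averaged, and log2 values reduced by the array's 75th percentile (39429 probes). Genes were named through RefSeq by accession (26412 probes), symbol (3854) or synonym (735), and 8428 probes kept the file's name. Probes had to be detected on both arrays of 1 or more groups (28426 probes), and each gene was represented by its brightest such probe (22978 genes). A few outlier spots left a gene without a value in a group, so 22974 to 22978 genes were tested per contrast. All 12 arrays were fitted in limma 3.58.1 (R 4.3.3) with 6 group means (6 residual and 2.23 prior degrees of freedom). A gene below background on both arrays of a group has only a bound, its fold being taken against the lowest detected level of each array. Values after ± are standard errors. The fit was tested on simulated data.

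Residuals of samples of 1 mouse correlated with r of 0.12 to 0.35, and the labels give the mouse, so samples are paired by mouse. It entered as a block in an alternative (duplicateCorrelation for genotype contrasts, consensus correlation 0.101).

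The genes named are the 8 members, those of 4 lists (ligands, other chemokine receptors, signalling, other chemoattractant receptors), markers, and the 3 genes most like each member. Members and lists were chosen with earlier results of these data known. Results of some listed genes are not reported here. The alternatives were other scalings, background correction, filters, probe summaries, the groups compared alone, the block, the deposited table and leaving out each array. Python 3.11.15, numpy 2.4.6 and pandas 2.3.3 were used.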

Additional observations from a re-analysis of the deposited data

Results flagged for a closer look

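The LPS response of the ligand gene Cxcl3 at 24 h differed between genotypes by the interaction test in limma (-1.92 ± 0.24, knockout minus wildtype, adjusted p = 0.0354). Cxcl3 was well above background on neither array of any of the 4 groups compared, so no size can be read from it. The call was lost with normexp background correction (-0.23, adjusted p = 0.475), no filter on dim probes (adjusted p = 0.0862), only the groups compared (adjusted p = 0.107) and the deposited value table, where the sign turned (0.0033, adjusted p = 0.993). It was also lost without either untreated wildtype array, either wildtype 24 h array or replicate 1 of the untreated knockout group (adjusted p of 0.0753 to 0.0970). No group had enough samples for a search for single outlying samples.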

How the results depend on the processing

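The LPS counts of members called stayed within 1.5 times of those reported under every alternative run, and no member's difference turned its sign while called. The genotype counts were less stable. In untreated cells the count was 3, and it was 1 with no filter on dim probes, 0 with only the groups compared fitted, and 1 to 2 leaving out 1 array. At 3 h it was 1, and 2 with normexp background correction and with the deposited value table, 0 with no filter and with only the groups compared, and 0 to 1 leaving out 1 array. At 24 h it was 1, and 2 with the 75th percentile over probes detected on all arrays, with mouse as a replicate block and with the deposited value table, 3 with normexp and with only probes above background on all arrays, 0 with no filter and with only the groups compared, and 0 to 2 leaving out 1 array. The interaction at 3 h gave 0 members, and 1 with normexp (Ccr3, 1.23, adjusted p = 0.0350). Counts over all genes moved likewise: the 387 genes called between genotypes at 3 h were 22 without knockout replicate 1, 26 without wildtype replicate 1, 51 without wildtype replicate 2 and 2929 without knockout replicate 2, and 0 with no filter or with only the groups compared. The fit on the groups compared alone has fewer arrays; the other causes were not tested.

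The replicate block changed the calls of single members in 4 of 88 comparisons, named beside their values, and in no other. Of 416 leave-one-out values of single members, 22 lost and 3 gained a call. For rises at 3 h the median over all genes moved to -0.09 in wildtype and -0.09 in knockout cells with the percentile over detected probes. Normexp compresses dim probes: Cx3cr1 then fell by 2.25 in knockout and 1.35 in wildtype cells at 24 h. Signal near background limits Ccr7, Cxcr2 and the late Cx3cr1 values, and with 2 mice a genotype the differences that were not called are not shown to be absent.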
